A study of Mus musculus with 23 samples.

Results

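Microglia, the resident macrophages of the brain, were described here through genes that mark their identity and their activation in the mouse hippocampus. The set was a list of 38 gene symbols, and its members were the rows of the gene table that carry one of those symbols. In all, 34 of the 38 were found among 13766 gene records. Itgax, Cst7 and Ccl3 were not analysed here. Spi1, which encodes the transcription factor PU.1, stands in the table under its older symbol Sfpi1 and so was not picked by the rule. Its values are given beside those of the 34.

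Microglia depend on the colony stimulating factor 1 receptor (Csf1r) for survival and on PU.1 and IRF8 for their identity. In the resting brain they survey tissue through receptors such as the purine receptor P2RY12 and the fractalkine receptor CX3CR1, and they take up debris through TREM2, Fc receptors and MERTK. The adaptors TYROBP and FCER1G pass receptor signals to kinases inside the cell, and lysosomal proteases such as cathepsin S and legumain break down what was engulfed. Activated microglia are known to lower several surveillance receptors and to raise lysosomal, antigen-presenting and chemokine genes.

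The tissue came from 23 FCG mice, a cross that parts sex chromosomes from gonads, on a C57Bl/6J background, about 12 months old, each giving 1 library of bulk RNA. Such mice have lost Sry, which directs testis formation, from the Y chromosome and may carry it as an autosomal transgene, so that sex chromosomes and gonads are inherited apart. Animals with ovaries were XX in 5 libraries (XXF) and XY in 6 (XYF). Those with testes, which carry the transgene, were XX in 6 (XXM) and XY in 6 (XYM). The comparisons ask which differences go with the sex chromosomes, which with the gonad, and whether one depends on the other. Cages were assigned by the look of the genitalia, so housing and gonad cannot be told apart.

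Library totals ran from 10257751 to 36078221 counts. Xist, the RNA that silences an X chromosome, lay between 936.3 and 1467.8 CPM (the count scaled to the same total in every library) in the 11 XX libraries and between 0.508 and 2.86 CPM in 11 of the 12 XY libraries. The library labelled XYF replicate 4 held 94.1 CPM of Xist, above the other XY libraries and below every XX library. Its level matched neither range, and the reason was not tested. The results for Ctss and the main counts are also given without this library. In whole tissue, fewer microglia and less RNA per microglial cell cannot be told apart.

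Cathepsin S (Ctss), a lysosomal cysteine protease that trims the invariant chain of MHC class II, was the 1 gene of the 34 that passed the test in any comparison. It was higher in XY than in XX hippocampus among animals with ovaries, by 0.53 ± 0.11 on the log2 scale (SE; 1.45-fold; n = 6 and 5; edgeR adjusted p = 0.0150). It was lower in XX animals with testes than in XY animals with ovaries, by -0.51 ± 0.10 (SE; n = 6 and 6; edgeR adjusted p = 0.00925). These 2 comparisons share the XYF libraries and are not independent. The other 33 genes had adjusted p of 0.0725 or more in every comparison. Adjusted p are Benjamini-Hochberg values over all 13766 genes from edgeR's quasi-likelihood test, and a gene was called under 0.05.

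The genes differed widely in level. Per kilobase of annotated exon, Ctss had the highest mean level over all libraries, at 72.5 CPM per kb. The protease legumain (Lgmn) followed at 48.5 CPM per kb and Tyrobp at 26.7. Csf1r stood at 18.2 and P2ry12 at 16.4 CPM per kb. The lowest level per length was that of Ptprc (CD45, a phosphatase of all white blood cells), at 0.288 CPM per kb. The exon length used for Ptprc, 18313 bases over all annotated exons, was the longest of the 34, and its last place rests on that length. Before division by length it had 5.28 CPM, beside 5.27 CPM for Aif1. Cd33, an inhibitory sialic acid receptor, had 0.697, the adaptor Apbb1ip 0.824 and Irf8 0.859 CPM per kb. The exon length used for Cd33, 7771 bases, is longer than its deposited span (chr7:43527456-43533171). Its level per kb and its place among the lowest are therefore uncertain. The same mismatch affects Olfml3 (6161 bases, chr3:103735394-103738001). All 34 genes had at least 20 counts in every library, so no gene entered through 1 group alone.

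The lysosomal and lipid group held 7 measured genes of 8 listed. Ctss lies on chromosome 3 (chr3:95526786-95556403, plus strand, in the mm10 coordinates of the table). In the 5 XXF libraries it had 83.6, 83.6, 93.1, 87.1 and 80.5 CPM. In XXM the lowest, median and highest libraries had 76.6, 87.9 and 97.8 CPM. These were 98.8, 116.6 and 155.4 CPM in XYF and 79.2, 91.3 and 117.5 CPM in XYM. The XYF libraries lay above all XXF and all XXM libraries, and XYM overlapped every other group. The group means were 85.6 ± 4.83 (SD, n = 5), 87.3 ± 9.72 (SD, n = 6), 124.0 ± 22.5 (SD, n = 6) and 94.6 ± 13.7 CPM (SD, n = 6) in the same order.

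Among the 34 genes, 1 was called in XYF against XXF, beside 0.291% of all genes. The same gene, Ctss, was the 1 with every XYF library above every XXF library, a separation that 0.552% of all genes showed in that direction. In XXM against XYF, 1 of 34 was called beside 0.501% of all genes, and 1 of 34 had every XXM library below every XYF library beside 0.523%. Without XYF replicate 4 the difference from XXF was 0.57 (edgeR adjusted p = 0.0127) and that of XXM from XYF was -0.54 (edgeR adjusted p = 0.00798).

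The call in XYF against XXF was lost when any of 5 single libraries was left out. The edgeR adjusted p was then 0.0504 without XXF replicate 1, 0.0524 without XXF replicate 2 and 0.0612 without XXF replicate 5. It was 0.0569 without XYF replicate 2 and 0.0506 without XYF replicate 3, the 2 libraries with the highest Ctss. The call in XXM against XYF held in all 17 alternatives run, with adjusted p between 0.000153 and 0.0428.

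Other comparisons of Ctss did not pass. Between XYM and XYF the difference was -0.39 ± 0.10 (SE, edgeR adjusted p = 0.177), and it passed without XYF replicate 1 (adjusted p = 0.0455) or XYM replicate 3 (adjusted p = 0.0429) and did not without XYF replicate 4 (adjusted p = 0.163). Between XYM and XXM it was 0.12 ± 0.10 (SE, edgeR adjusted p = 0.966), and between XXM and XXF 0.03 ± 0.11 (SE, edgeR adjusted p = 0.962). With both gonads weighted equally, XY minus XX (the sex chromosome effect) was 0.33 ± 0.07 (SE, edgeR adjusted p = 0.0509), just outside the threshold. Over 28 alternatives its adjusted p ran from 0.00312 to 0.123, and 10 of them called it. Of these, 7 left out 1 library each, with edgeR adjusted p of 0.0483 and 0.0362 without XXM replicates 3 and 6, 0.0123, 0.0379 and 0.0487 without XYF replicates 1, 4 and 5, and 0.0269 and 0.0413 without XYM replicates 5 and 6. Whether the effect of sex chromosomes depended on the gonad was tested by the interaction, which was -0.41 ± 0.15 for Ctss (SE, unadjusted p = 0.00878, edgeR adjusted p = 0.999).

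**Figure D1:**
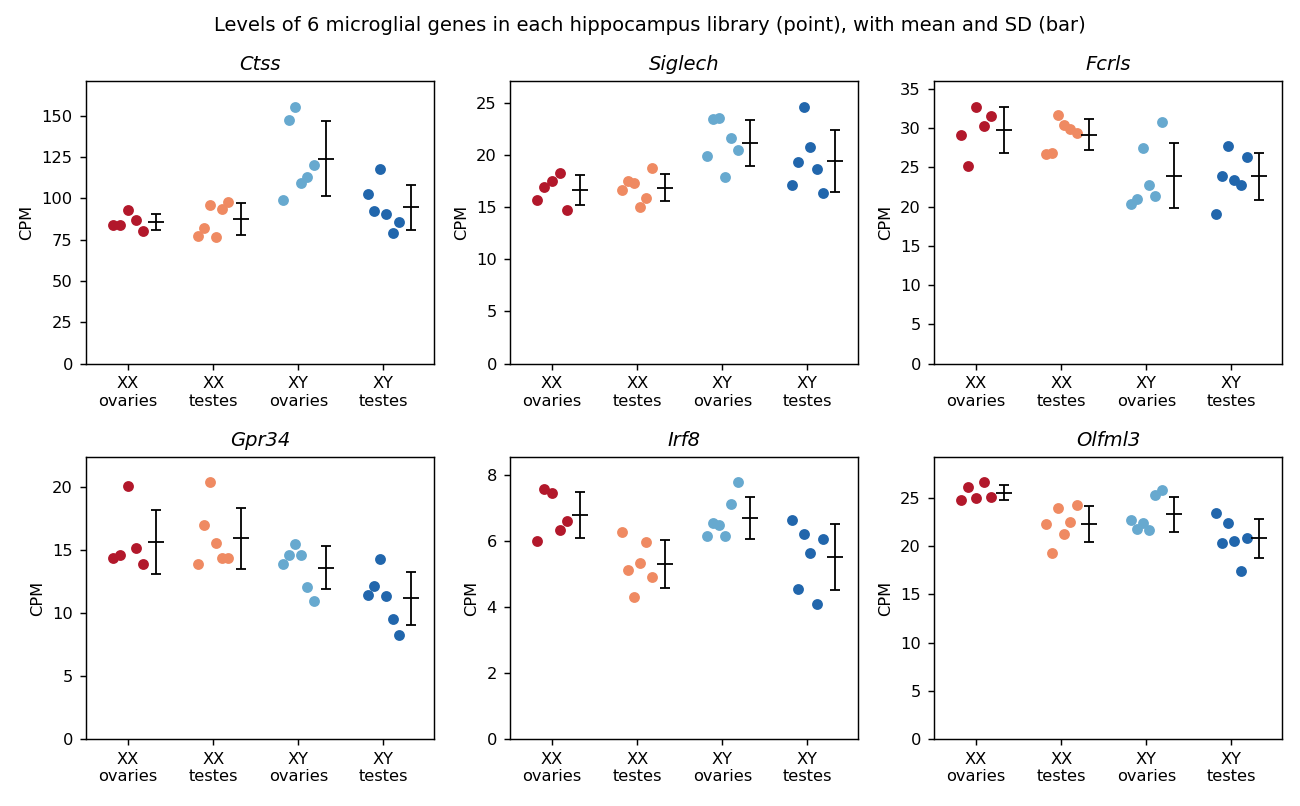
CPM (vertical axes, from 0) in each of the 23 libraries for Ctss, Siglech, Fcrls, Gpr34, Irf8 and Olfml3, by group; points are libraries and the bars beside them give the mean and SD. Ctss lies between 98.8 and 155.4 CPM in XY animals with ovaries, above all 11 libraries of XX animals.

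The 250 bases upstream of the Ctss start site are shown because Ctss was the called gene, with a match to the IRF motif in capitals (RefSeq sequence, build GRCm38.p6, chr3:95526536-95526785, plus strand).
Ctss upstream: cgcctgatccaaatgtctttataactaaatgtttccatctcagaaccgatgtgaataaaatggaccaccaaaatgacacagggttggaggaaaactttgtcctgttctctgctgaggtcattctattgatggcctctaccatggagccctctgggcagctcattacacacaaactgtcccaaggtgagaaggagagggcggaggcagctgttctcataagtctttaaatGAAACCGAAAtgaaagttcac

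Matches to 3 motifs were searched on both strands of 300-base windows, from 250 bases before to 50 after each RefSeq start, for the 29 of 34 members with a window. The windows numbered 35, since some genes have more than 1 start. The IRF motif, GAAA on either side of any 2 bases, as bound by interferon regulatory factors, was found in Aif1 and Ctss, in 2 of 35 windows beside 3.44% of 32851 windows of all genes. The PU.1 motif GAGGAAGT was found in 7 members, in 7 of 35 windows beside 3.20% of all windows. A joint Ets and IRF motif, GGAA and GAAA on either side of any 2 bases, was found in Cd68 and Lpcat2, in 2 of 35 windows beside 2.72%. Aif1 and Ctss had the motif at -157 to -148 and at -21 to -12 from their starts.

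The stretches with the PU.1 letters are shown because microglia depend on PU.1. The match is in capitals, written as GAGGAAGT or as its reverse complement ACTTCCTC.
Ctss (chr3:95526774-95526801, plus strand): atgaaagttcACTTCCTCattgtggatg
Inpp5d (chr1:87620262-87620311, plus strand): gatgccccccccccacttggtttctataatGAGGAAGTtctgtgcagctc
Hpgds (chr6:65144742-65144809, minus strand): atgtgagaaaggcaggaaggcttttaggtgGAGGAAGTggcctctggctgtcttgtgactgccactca
Cd53 (chr3:106790126-106790153, minus strand): actcagtctcACTTCCTCactcttctcg
Apbb1ip (chr2:22774322-22774349, plus strand): ggctcaaagcACTTCCTCctccctgagc
Cyth4 (chr15:78597063-78597090, plus strand): gccagggctgACTTCCTCccacagggtc
Slco2b1 (chr7:99711317-99711344, minus strand): gtccatgaggGAGGAAGTgactcatctt
In Ctss the match spans the start site, from -2 to 6. Of these 7 genes, Ctss was called and the other 6 were not called in any comparison. A match of letters is a description of the sequence, and binding was not measured here.

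The remaining lysosomal and lipid genes gave no call. Lgmn, an asparaginyl protease that activates cathepsins, had group means of 109.8 ± 2.25 (SD, n = 5) in XXF, 117.2 ± 9.34 in XXM, 113.5 ± 6.80 in XYF and 109.7 ± 3.24 in XYM (CPM ± SD, n = 6 each). It varied least within groups of all 34 genes, with a pooled SD of 0.0796 on the log2 scale. Cd68, a lysosomal membrane glycoprotein of macrophages, had means of 6.43 ± 0.681 (SD, n = 5), 6.90 ± 1.1, 6.91 ± 1.23 and 6.90 ± 0.963 CPM (SD, n = 6 each) in XXF, XXM, XYF and XYM. These means differed by less than the spread within groups.

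Lyz2, lysozyme, had the widest spread, with a pooled SD of 0.44 on the log2 scale. It had 13.6, 12.2, 12.0, 11.1 and 8.37 CPM in XXF. The lowest, median and highest were 9.67, 9.99 and 23.1 CPM in XXM, 7.29, 12.9 and 17.5 in XYF, and 6.63, 7.36 and 14.7 in XYM. All groups overlapped. Lysozyme has a near-identical copy, Lyz1, so its level is uncertain: no source here states how reads were divided between copies.

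Lpcat2, which makes the lipid mediator platelet-activating factor, had means of 11.9 ± 1.51 (SD, n = 5), 13.8 ± 2.03, 14.7 ± 2.04 and 13 ± 1.32 CPM (SD, n = 6 each) in XXF, XXM, XYF and XYM. Ly86 (MD-1), a partner of a Toll-like receptor homologue, averaged 15.2 CPM over all libraries. Hpgds, a prostaglandin D2 synthase, averaged 7.97 CPM.

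The homeostatic group, 10 of 10 listed, held the genes that after Ctss came nearest to a call for the sex chromosomes, and they lay on both sides of 0. Siglech, a sialic acid-binding lectin that signals through TYROBP (chr7:55768178-55778833), had a sex chromosome effect of 0.27 ± 0.07 on the log2 scale (SE, edgeR adjusted p = 0.0989). It had 15.7, 16.9, 17.5, 18.3 and 14.7 CPM in XXF, and 15, 17 and 18.7 CPM as lowest, median and highest in XXM. The same 3 values were 17.9, 21.1 and 23.5 CPM in XYF and 16.3, 18.9 and 24.6 CPM in XYM. The XX and XY libraries overlapped between 16.3 and 18.7 CPM. Without XYM replicate 6 the edgeR adjusted p was 0.0406.

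Fcrls, an Fc receptor-like scavenger receptor of mouse microglia (chr3:87250965-87263524), pointed the other way, by -0.30 ± 0.07 (SE, edgeR adjusted p = 0.0725). It had 29.1, 25.1, 32.7, 30.2 and 31.5 CPM in XXF, and 26.7, 29.7 and 31.7 as lowest, median and highest in XXM. These were 20.3, 22.1 and 30.7 CPM in XYF and 19.1, 23.6 and 27.7 CPM in XYM. The medians of both XY groups lay below every XX library, while single XY libraries reached into the XX range. In edgeR it passed without XXF replicate 2 (adjusted p = 0.0362), XYF replicate 6 (0.00780) or XYM replicate 3 (0.0400).

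Gpr34, a receptor for lysophosphatidylserine, is the 1 X-linked gene of the 34 (chrX:13632769-13640858). Its sex chromosome effect was -0.36 ± 0.09 (SE, edgeR adjusted p = 0.115, or 0.0400 without XYM replicate 3). It had 14.4, 14.6, 20.1, 15.2 and 13.9 CPM in XXF and 13.9, 15 and 20.4 as lowest, median and highest in XXM. These were 11, 14.2 and 15.5 CPM in XYF and 8.26, 11.4 and 14.3 CPM in XYM. The XX libraries reached higher and the XYM libraries lower, with overlap in between. The difference of XYM from XXM was -0.52 ± 0.12 (SE, edgeR adjusted p = 0.208). It passed with DESeq2 (adjusted p = 0.0386), with limma's voom and sample quality weights (adjusted p = 0.00664), and in edgeR without XYM replicate 3 (adjusted p = 0.0476).

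No member was called for the sex chromosome effect, beside 0.283% of all genes, and none had all XY libraries above (0.0799% of all genes) or below (0.0218%) all XX libraries. At an unadjusted p under 0.05 there were 6 of 34, beside 6.78% of all genes. Those above 0 were Ctss, Siglech and Cyth4, and those below 0 were Fcrls, Gpr34 and Olfml3. DESeq2 called 4 members, with adjusted p of 0.00312 for Ctss, 0.00833 for Fcrls and 0.0244 for both Gpr34 and Siglech. Without XYF replicate 4, edgeR called Ctss (adjusted p = 0.0379), while Siglech had 0.0518, Fcrls 0.114 and Gpr34 0.125. The median log2 difference of the 34 genes was 0.04, against 0.0013 over all genes, and 24 of 34 were above 0 beside 50.9% of all genes. With 1 library left out this median ran from 0.02 to 0.06, and it was 0.0247 without XYF replicate 2 and 0.0253 without XYM replicate 3.

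Cx3cr1, the fractalkine receptor, had 53.2, 63.6, 60.4, 56.3 and 63.8 CPM in XXF, and medians of 64.5 in XXM, 62.1 in XYF and 61.9 CPM in XYM. P2ry12 had means of 41.5 ± 5.27 (SD, n = 5) in XXF, 43.4 ± 5.98 in XXM, 40.2 ± 7.74 in XYF and 41.6 ± 4.89 in XYM (CPM ± SD, n = 6 each). For both genes the sex chromosome effect (0.02 ± 0.05 and -0.06 ± 0.08, SE) and the gonad effect (0.04 ± 0.05 and 0.06 ± 0.08, SE) were smaller than their SE. Tmem119, a transmembrane protein used to tell microglia from other macrophages, is given with the gonad effect. P2ry13, another purine receptor, had means of 15.8 ± 1.22 (SD, n = 5), 17.5 ± 2.01, 14.9 ± 1.90 and 16.5 ± 3.16 CPM (SD, n = 6 each) in XXF, XXM, XYF and XYM. Selplg, the ligand of P-selectin, had 36.0 ± 3.37 (SD, n = 5), 33.5 ± 3.09, 35.1 ± 5.72 and 32.3 ± 2.41 CPM (SD, n = 6 each) in the same order. Slco2b1, an organic anion transporter, averaged 24.7 CPM.

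**Figure D2:**
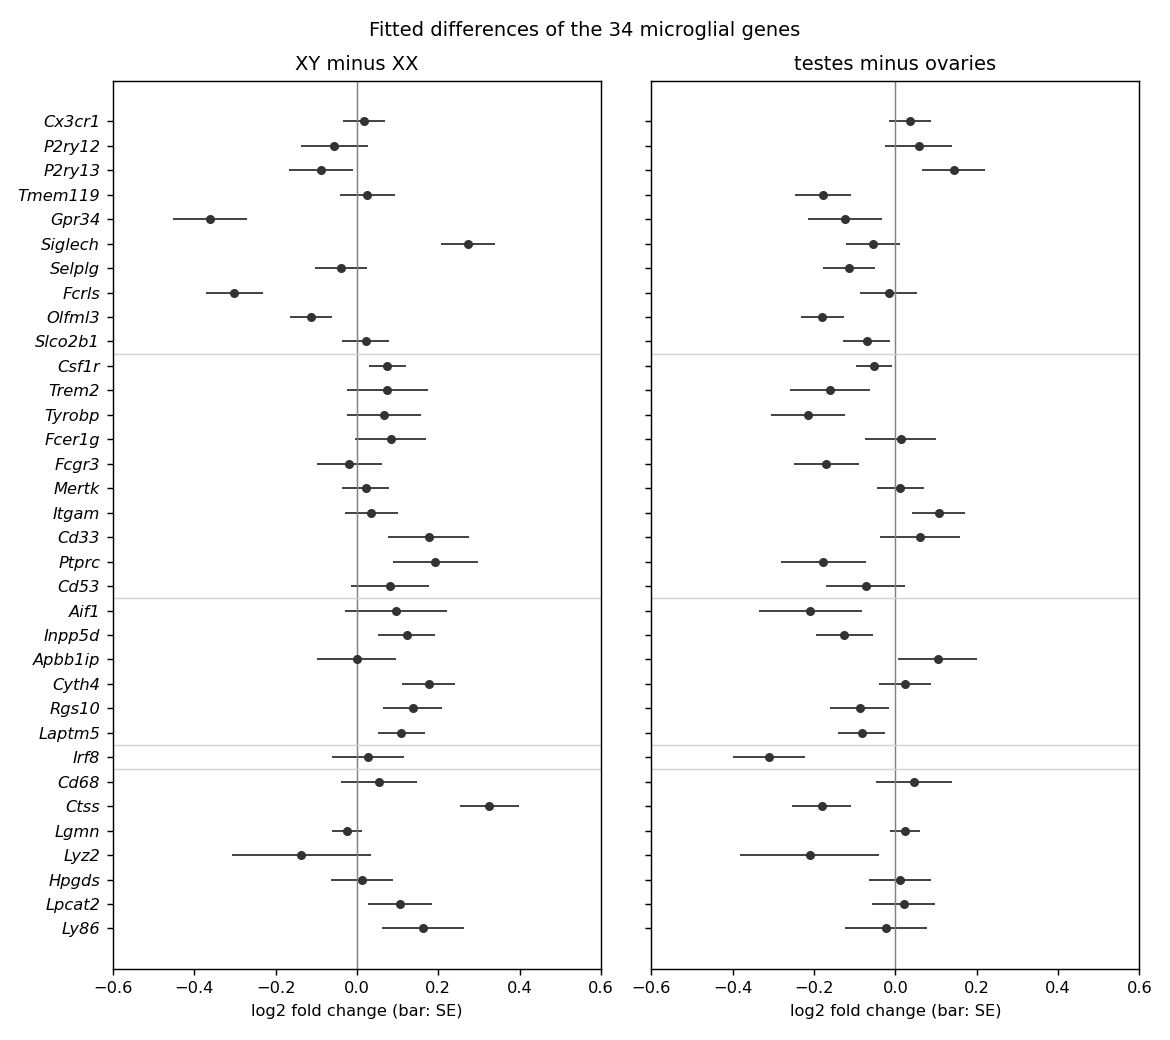
Log2 fold change (horizontal axis) of each of the 34 genes for XY minus XX (left) and testes minus ovaries (right) from the edgeR fit; points are estimates, bars are 1 SE, and grey lines part the roles. On the left, Ctss (0.33) and Siglech (0.27) lie farthest above 0 and Gpr34 (-0.36) and Fcrls (-0.30) farthest below; on the right, Irf8 (-0.31) lies farthest below.

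With XX and XY weighted equally, the difference of testes from ovaries (the gonad effect) called 0 of 34 genes in edgeR, beside 0.160% of all genes. At an unadjusted p under 0.05 there were 6 of 34, beside 13.6% of all genes, and all 6 estimates were below 0, beside 7.14% of all genes in that direction. They were Irf8, Olfml3, Tmem119, Ctss, Tyrobp and Fcgr3. DESeq2 called 0 members, and limma's voom with sample quality weights called 1, Olfml3 (adjusted p = 0.0495). The median over the 34 was -0.06 against -0.0022 over all genes, and 13 of 34 were above 0 beside 49.0% of all genes. With 1 library left out this median ran from -0.08 to -0.04, with -0.0389 without XYF replicate 2 and -0.0418 without XYF replicate 3. Without XYF replicate 4, edgeR called 0 of 34, 9 of 34 had an unadjusted p under 0.05, all below 0, beside 12% of all genes, and the adjusted p was 0.204 for Irf8 and for Olfml3.

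Irf8, an interferon regulatory factor needed for microglial development and activation (chr8:120736376-120756692), differed by -0.31 ± 0.09 (SE, edgeR adjusted p = 0.161). It had 6.00, 7.57, 7.46, 6.35 and 6.60 CPM in XXF and 6.15, 6.52 and 7.78 CPM as lowest, median and highest in XYF. With testes these were 4.30, 5.22 and 6.29 CPM in XXM and 4.09, 5.86 and 6.63 CPM in XYM. The testis libraries reached into the lower part of the ovary range. Its partner Spi1 (Sfpi1 in the table) had 2.96 ± 0.414 (SD, n = 5), 2.72 ± 0.418, 2.78 ± 0.682 and 2.49 ± 0.571 CPM (SD, n = 6 each) in XXF, XXM, XYF and XYM, with a gonad effect of -0.16 ± 0.13 (SE, edgeR adjusted p = 0.597).

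Olfml3, a secreted olfactomedin-like protein enriched in microglia (chr3:103735394-103738001), differed by -0.18 ± 0.05 with the gonad (SE, edgeR adjusted p = 0.161). It had 24.8, 26.1, 25, 26.6 and 25.1 CPM in XXF, and 21.7, 22.6 and 25.8 as lowest, median and highest in XYF. These were 19.3, 22.4 and 24.3 CPM in XXM and 17.4, 20.6 and 23.4 CPM in XYM. Every XXM library lay below every XXF library, as for 0.421% of all genes, and so did every XYM library, as for 0.821%. Among the 34 genes Olfml3 was the 1 with either separation, and the pairwise differences did not pass (edgeR adjusted p = 0.633 for XXM and 0.161 for XYM against XXF).

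Tmem119 had 25.1, 20.4, 32.1, 28.5 and 30.4 CPM in XXF, 24.5, 25.2 and 26.6 CPM as lowest, median and highest in XXM, 24.8, 28.6 and 35.1 in XYF, and 21.9, 24 and 28.8 in XYM. The groups overlapped, and the gonad effect was -0.18 ± 0.07 (SE, edgeR adjusted p = 0.258).

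The receptor group held 10 measured genes of 11 listed, and none was called. Csf1r, the growth factor receptor, had 93.9, 111.2, 92.6, 96.8 and 113.4 CPM in XXF and medians of 101.1 in XXM, 111.2 in XYF and 102.2 CPM in XYM. Its sex chromosome effect was 0.07 ± 0.05 and its gonad effect -0.05 ± 0.05 (SE), and it varied least within groups after Lgmn, with a pooled SD of 0.109 on the log2 scale. Trem2, a lipid receptor that drives the response to damage, had means of 13.7 ± 1.81 (SD, n = 5), 12.1 ± 1.94, 14.3 ± 2.31 and 12.8 ± 2.93 CPM (SD, n = 6 each) in XXF, XXM, XYF and XYM.

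Tyrobp (DAP12), the adaptor of TREM2 and Siglec-H, had 16.7, 19.2, 20, 19.8 and 15.2 CPM in XXF. The lowest, median and highest were 14.4, 15.7 and 20.3 CPM in XXM, 16.5, 18.5 and 25.4 in XYF, and 14, 15.4 and 22.0 in XYM. The ranges overlapped, with a gonad effect of -0.21 ± 0.09 (SE, edgeR adjusted p = 0.305). Fcgr3, a low-affinity IgG receptor, averaged 14 CPM and Fcer1g, the common Fc receptor gamma chain, 8.38 CPM.

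Mertk, which recognises dying cells through bridging proteins, had nearly level means of 43.8 ± 3.65 (SD, n = 5), 43.3 ± 4.97, 43.5 ± 4.81 and 44.7 ± 3.58 CPM (SD, n = 6 each) in XXF, XXM, XYF and XYM. Itgam (CD11b), an integrin of the complement receptor CR3, averaged 31.9 CPM, Cd33 5.42 CPM and the tetraspanin Cd53 8.42 CPM.

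Ptprc (CD45) had 5.38, 4.33, 4.55, 4.74 and 3.94 CPM in XXF. The lowest, median and highest were 4.36, 4.93 and 6.08 CPM in XXM, 5.16, 6.24 and 9.54 in XYF, and 3.92, 4.43 and 5.56 in XYM. XYF held the highest libraries and overlapped each other group at its lower end. The difference of XYF from XXF was 0.51 ± 0.15 (SE, edgeR adjusted p = 0.358), or 0.48 without XYF replicate 4 (edgeR adjusted p = 0.531).

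The signalling group, 6 of 6 listed, showed values of the same order. Aif1 (IBA1), the actin-bundling protein used to stain microglia, had 5.11, 5.21, 5.37, 5.48 and 3.30 CPM in XXF. The lowest, median and highest were 3.87, 5.22 and 6.25 CPM in XXM, 4.29, 6.10 and 8.72 in XYF, and 3.02, 4.54 and 5.99 in XYM. All groups overlapped. Inpp5d (SHIP1), a lipid phosphatase that restrains TREM2 and Fc receptor signals, had means of 14 ± 1.39 (SD, n = 5), 14.5 ± 1.66, 17.2 ± 2.71 and 13.9 ± 1.20 CPM (SD, n = 6 each) in XXF, XXM, XYF and XYM.

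Cyth4, an exchange factor for ARF proteins, had means of 21.3 ± 2.64 (SD, n = 5) and 21.3 ± 1.32 CPM in the XX groups with ovaries and testes, and of 23.6 ± 3.05 and 24.4 ± 2.76 CPM in the XY groups (SD, n = 6 each). Its sex chromosome effect was 0.18 ± 0.06 (SE, edgeR adjusted p = 0.529). Rgs10, which shortens G protein signals, averaged 27.1 CPM, the lysosomal membrane protein Laptm5 34.7 CPM and the adaptor Apbb1ip 6.11 CPM.

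The interaction was called for none of 13766 genes by edgeR (0.0%), and 444 genes, 3.23%, had an unadjusted p under 0.05. Of the 34 genes, 5 did, all below 0, beside 2.18% of all genes in that direction. They were Ptprc at -0.64 ± 0.21, Aif1 at -0.56 ± 0.25, Ctss at -0.41 ± 0.15, Lpcat2 at -0.38 ± 0.16 and Inpp5d at -0.35 ± 0.14 (SE, edgeR adjusted p = 0.999 for each). The median over the 34 was -0.14 against -0.0066 over all genes, and 7 of 34 were above 0 beside 47.8% of all genes. A value below 0 means that the testis-minus-ovary difference was lower in XY than in XX animals. DESeq2 and voom called 0 of the 34. Without XYF replicate 4, 6 of 34 had an unadjusted p under 0.05, all below 0, beside 3.14% of all genes. The values were then -0.60 for Ptprc, -0.64 for Aif1, -0.45 for Ctss, -0.33 for Lpcat2 and -0.39 for Inpp5d.

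The pairwise comparisons share groups and are given side by side. XYF against XXF had 10 of 34 genes at an unadjusted p under 0.05 beside 5.17% of all genes, 9 of them higher beside 2.84%. In that comparison 26 of 34 were above 0 beside 52.3% of all genes. The median over the 34 was 0.1018 there, and it depended on single libraries. It was 0.0655 without XYF replicate 2 and 0.1588 without XYF replicate 1. XYM against XYF had 12 of 34 beside 8.63%, all 12 lower beside 4.66%, with 6 of 34 above 0 beside 47.3%. It called 0 of 34 in edgeR beside 0.225% of all genes, and 1, Ctss, in DESeq2 and in voom.

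XXM against XYF had 11 of 34 at an unadjusted p under 0.05 beside 10% of all genes, 9 of them lower beside 5.15%. The other pairs had fewer. XYM against XXF had 6 of 34 beside 10.1%, with 0 called by edgeR beside 0.131% and 3 called by voom. XYM against XXM had 4 of 34 beside 5.29%, with 0 called by edgeR beside 0.116% and 1, Gpr34, by DESeq2 and voom. XXM against XXF had 2 of 34 beside 7.71%, with 0 called by edgeR, DESeq2 and voom, beside 0.0% of all genes in edgeR. Without XYF replicate 4 the counts at an unadjusted p under 0.05 were 12 of 34 in each of the 3 pairs with XYF, beside 5.05% of all genes against XXF, 6.45% against XYM and 7.88% against XXM.

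As a mean of log2 CPM over the 34 genes, the libraries of XXF gave 4.17, 4.18, 4.22, 4.18 and 4.14. The lowest, median and highest were 4.09, 4.20 and 4.29 in XXM, 4.16, 4.29 and 4.43 in XYF, and 4.03, 4.12 and 4.33 in XYM. Group means were 4.18 ± 0.03 (SD, n = 5), 4.20 ± 0.09, 4.29 ± 0.12 and 4.15 ± 0.11 (SD, n = 6 each). All 4 groups overlapped, and no test was made of this mean because it is a score over chosen genes. The pooled SD within groups was 0.0956.

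**Figure D3:**
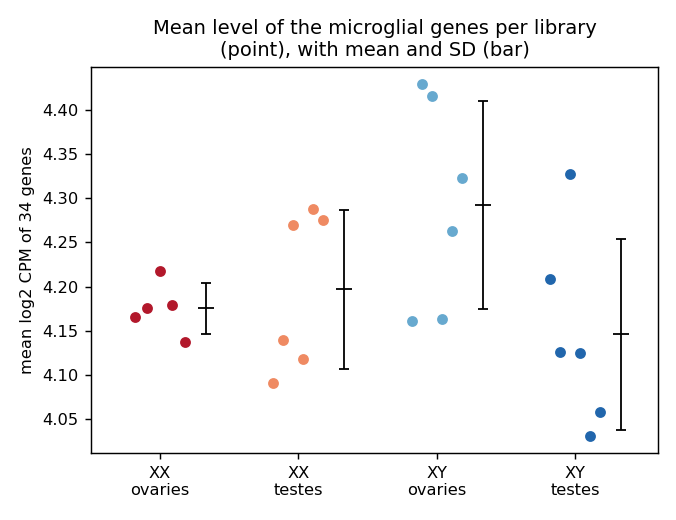
Mean log2 CPM of the 34 genes (vertical axis, log2 scale, not from 0) in each library by group; points are libraries and bars the mean and SD. XY animals with ovaries span 4.16 to 4.43 and overlap the other 3 groups.

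Libraries of 1 group differed across many genes at once. XYF replicates 2 and 3 were above their group median for 27 and 24 of the 34 genes, and XYF replicate 4 was the lowest of its group for 17. XYM replicate 3 was the highest of its group for 19 genes. Single genes varied by a median SD of 0.19 on the log2 scale within groups, against 0.15 over all genes, and after Lyz2 the widest was Aif1 at 0.32.

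**Figure D4:**
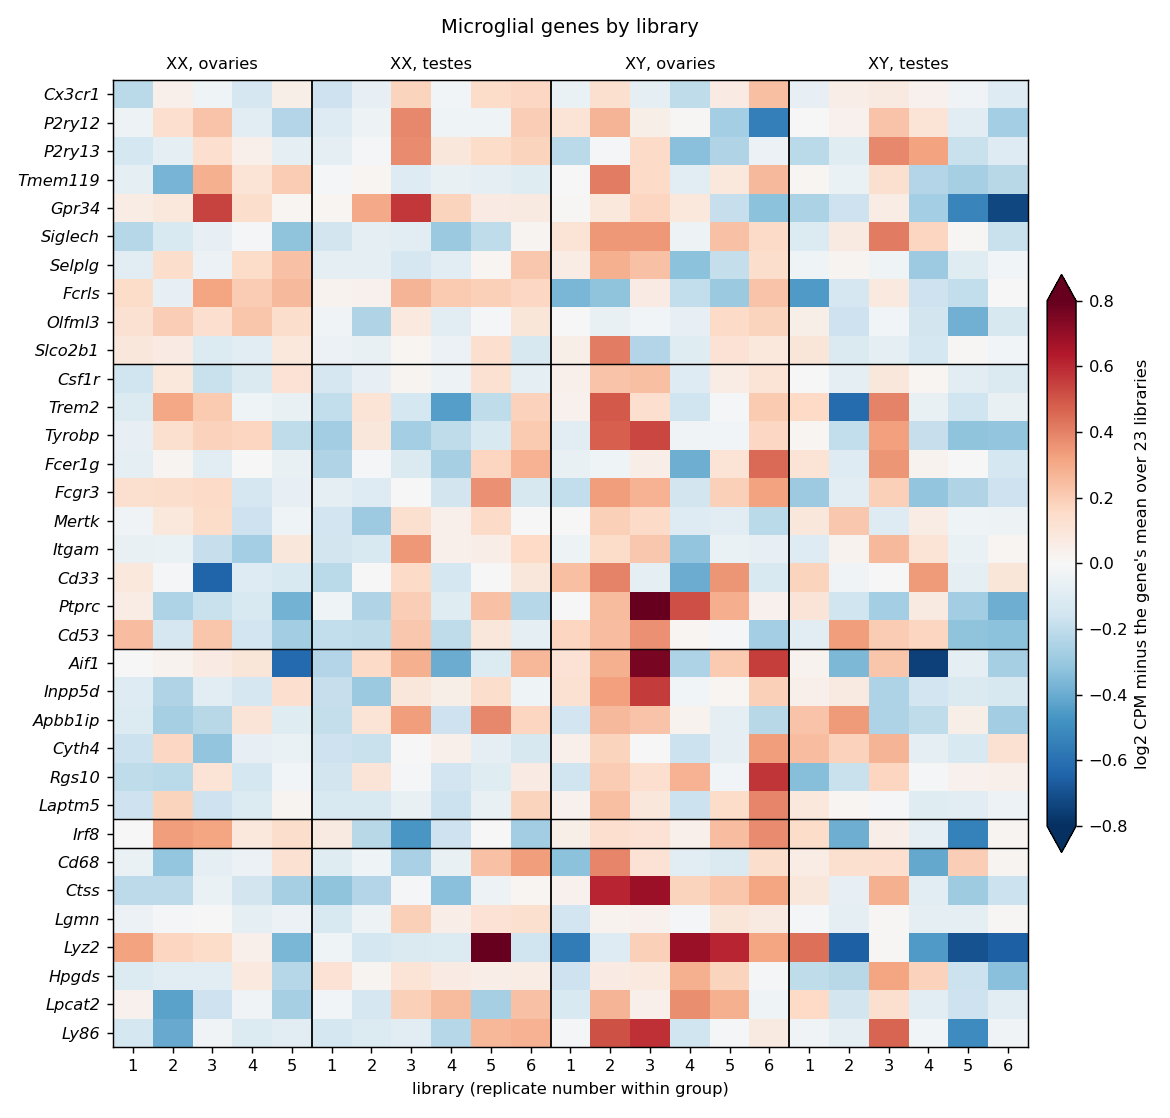
Log2 CPM minus the mean of the gene over the 23 libraries (colour, cut at 0.8 in both directions), with genes in rows by role and libraries in columns by group and replicate number. The row of Ctss is above 0 in all 6 libraries of XY animals with ovaries, and XYF replicates 2 and 3 and XYM replicate 3 are red over most rows.

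Of the wider microglial pathway genes, 59 of 71 listed were measured, and 2 were called in any comparison, both from the disease-associated list. The 59 gave 1 call each for the sex chromosome effect (0.283% of all genes), the gonad effect (0.160%), XYF against XXF (0.291%) and XYM against XYF (0.225%), 2 in XXM against XYF (0.501%) and 0 in the other comparisons. B2m, the light chain of MHC class I that all nucleated cells make, was higher in XY libraries by 0.34 ± 0.07 (SE, edgeR adjusted p = 0.0166) and lower with testes by -0.36 ± 0.07 (SE, edgeR adjusted p = 0.0129). B2m was higher in XYF than in XXF by 0.55 ± 0.10 (SE, edgeR adjusted p = 0.00396), and lower than in XYF in XYM by -0.58 ± 0.09 (SE, edgeR adjusted p = 0.00274) and in XXM by -0.70 ± 0.09 (SE, edgeR adjusted p = 4.37e-05). The pairs without XYF did not pass, with 0.12 ± 0.09 for XYM against XXM, -0.14 ± 0.10 for XXM against XXF and -0.02 ± 0.10 for XYM against XXF (SE, edgeR adjusted p = 0.958, 0.720 and 0.964). The interaction was -0.43 ± 0.14 (SE, unadjusted p = 0.00365, edgeR adjusted p = 0.999). Its means were 80.1 ± 6.49 (SD, n = 5) in XXF, 72.4 ± 6.29 in XXM, 117.5 ± 16.6 in XYF and 78.6 ± 11.7 in XYM (CPM ± SD, n = 6 each). Cd52, a small surface glycoprotein of white blood cells, was lower in XXM than in XYF by -1.05 ± 0.23 (SE, edgeR adjusted p = 0.0306). Without XYF replicate 4 the call for Cd52 was lost, at -1.005 (edgeR adjusted p = 0.0725). B2m was still called then, with edgeR adjusted p of 0.0308 for the sex chromosome effect, 0.0263 for the gonad effect, 0.0113 against XXF, 0.00830 for XYM against XYF and 0.000169 for XXM against XYF.

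None of the 12 measured ligands and receptors, 14 further homeostatic genes or 11 genes of ITAM signalling was called by edgeR in any comparison. At an unadjusted p under 0.05 for the sex chromosome effect they numbered 4, 1 and 0, beside 6.78% of all genes, and for the gonad effect 2, 2 and 0, beside 13.6%. The disease-associated list had 2 and 5 of 19 for the same effects, and the C1q and complement receptor list 0 and 3 of 5. The C1q genes, which microglia supply to the brain, were not called either. Their gonad effects were -0.28 ± 0.08 for C1qa, -0.25 ± 0.08 for C1qb and -0.19 ± 0.07 for C1qc (SE, edgeR adjusted p = 0.161, 0.193 and 0.222). Whether these effects differed between XX and XY animals was tested by the interaction, which was called for none of them. It was -0.315 ± 0.159 for C1qa, -0.316 ± 0.159 for C1qb and -0.274 ± 0.131 for C1qc (SE, unadjusted p = 0.0578, 0.0572 and 0.0472, edgeR adjusted p = 0.999 for each). In the same gene order, XYM against XYF gave -0.43, -0.41 and -0.33 (edgeR adjusted p = 0.152, 0.202 and 0.235). XXM against XXF gave -0.12, -0.10 and -0.05 (edgeR adjusted p = 0.804, 0.841 and 0.901). XYF against XXF gave 0.28, 0.31 and 0.25 (edgeR adjusted p = 0.842, 0.747 and 0.762).

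Interferon-response genes had their highest median summed level in XYF, where the median of Ctss was also highest. The summed level of 9 measured of 10 listed ran from 58.2 to 66.9 CPM in XXF, 51.0 to 64.0 in XXM, 89.2 to 155.3 in XYF and 53.5 to 95.2 in XYM. Of the 9, 8 were called in XYF against XXF beside 0.291% of all genes, and 8 in XXM against XYF beside 0.501%. In XYM against XYF 8 were called beside 0.225%. There Ctss was not called by edgeR (adjusted p = 0.177) and was called by DESeq2 (adjusted p = 0.0415) and voom (adjusted p = 0.0327). For the sex chromosome effect 8 were called beside 0.283%, and for the gonad effect 6 beside 0.160%. Ctss was called for neither effect by edgeR. For the sex chromosome effect it was just outside the threshold (edgeR adjusted p = 0.0509), and 10 of 28 alternatives called it. For the gonad effect the edgeR adjusted p was 0.283, and 0 of 28 called it. The interaction and the pairs without XYF gave 0 calls among the 9. None of the 9 was at 0 in any library. Their part in the difference of Ctss was not tested.

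Choroid plexus genes, 8 measured of 11, summed to 285.1 to 3276.4 CPM in XXF, 391.1 to 4692.4 in XXM, 301.6 to 5778.0 in XYF and 305.7 to 4611.4 in XYM, with none called in any comparison. The medians were 373.1 CPM in XXF, 3637.8 in XXM, 335.2 in XYF and 394.7 in XYM. The ranges overlapped, the XXM median was the highest, and the part of these genes in the difference of Ctss between XXM and XYF was not tested. Border-associated macrophage genes, 4 of 11 and including Mrc1 and Cd163, summed to between 18.2 and 31.1 CPM over all libraries, and monocyte genes, 2 of 6, to between 26.5 and 38.7 CPM, with none called. Markers of neutrophils and lymphocytes were not analysed here. All 8 markers each of endothelium, astrocytes, oligodendrocytes and neurons were measured, and none was called in any comparison. The part of these cells in the results was not tested.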

How the data were processed

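RNA was read from 23 hippocampi, each of a different mouse, as paired 100-base reads of ribosomal RNA-depleted libraries, per the labels' protocols. The deposited table gives the authors' estimated counts per gene, and their normalized values on a log2 scale, which were checked to be the log2 count plus 1 constant per library less the XXF median (largest residual 1.1e-06 over 13753 genes with no 0). Per the file headers, a gene was kept where 100% of the libraries of some group had a raw value of at least 20. The submitters' processing notes name mm10 and DESeq. No source here names the aligner or the counting program, or says whether strand was used.

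Estimated counts were rounded. After TMM scaling, edgeR (4.0.16, R 4.3.3) quasi-likelihood tests were fitted to all 13766 genes with 1 mean per group. filterByExpr removed 0 genes. Contrasts were the sex chromosome effect, the gonad effect, their interaction and 6 pairs, all 2-sided, with Benjamini-Hochberg adjustment over all genes. CPM used TMM-scaled totals, and log2 CPM a prior count of 2. Lengths are unions of GENCODE exons, and for Cd33 and Olfml3 these exceed the deposited span of the gene. Alternatives were DESeq2 (1.42.0), limma's voom with sample quality weights (3.58.1), RLE scaling, a filter of 1 CPM in 5 libraries, limma on the deposited log2 values, fits of 2 groups only, and each library left out.

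Members and lists were chosen with earlier results of these data known. Values are named for members called anywhere, the 5 with the smallest p for each effect and the interaction, fixed role anchors, and the highest and lowest levels, with Siglech, Fcrls, Gpr34, Irf8 and Olfml3 shown by library. No libraries of 1 group agreed within sampling noise (lowest chi-square per gene 4.3). Replicate numbers follow accession order and only name libraries.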

Additional observations from a re-analysis of the deposited data

Results flagged for a closer look

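In 6 of the 140 sets of values examined, 4.29%, 1 library lay far from the rest of its group, where chance gives about 1 in 20. Lyz2 had 23.1 CPM in XXM replicate 5, with the next library at 10.6 CPM. Fcgr3 was also highest in XXM replicate 5, at 17.9 CPM against 13.8 CPM in the next. Laptm5 was highest in XXM replicate 6, at 39.0 CPM against 33.1 CPM. Gpr34 was highest in XXF replicate 3, at 20.1 CPM against 15.2 CPM. At the low end, Aif1 had 3.30 CPM in XXF replicate 5, with the next library at 5.11 CPM, and Cd68 had 5.04 CPM in XYM replicate 4, with the next at 6.85 CPM.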

How the results depend on the processing

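Of 1124 values recomputed under the alternatives, 1047 were counted as kept. Named genes were kept if their direction and side of the threshold held, and 0 reversed in direction. Counts of called genes were kept if they changed by no more than 1.5 times. Medians and means over the 34 genes were kept if they moved by less than 0.0956, the pooled SD within groups. That limit is wide: the median difference in XYM against XXF changed sign and was still kept. The 1047 therefore says little about these medians. The sex chromosome effect called 39 genes in edgeR, 60 in DESeq2 and 68 in voom, and of the 34 microglial genes 0, 4 and 3, with 1 under RLE scaling and 0 to 2 with 1 library left out. The gonad effect called 22 genes in edgeR, 98 in DESeq2 and 76 in voom (17 to 85 with 1 library left out), and of the microglial genes 1 in voom. The interaction called 0 to 3 genes with 1 library left out. XYF against XXF called 2 microglial genes in voom and 0 to 1 with 1 library left out. XYM against XXM called 1 in DESeq2, 1 in voom and 0 to 1 with 1 library left out, and XXM against XYF called 2 in voom. XXM against XXF called 1 gene in DESeq2. XYM against XYF called 31 genes, or 47 in DESeq2, 15 with only those groups fitted and 19 to 50 with 1 library left out, and of the microglial genes 1 in DESeq2, 1 in voom and 0 to 1 with 1 library left out. XYM against XXF called 18 genes, or 51 in DESeq2, 123 in voom and 12 to 36 with 1 library left out, and 3 microglial genes in voom. The cause of these changes was not tested.

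No paired analysis was possible because the labels give animal numbers and no replicate numbers shared between groups. The libraries are bulk tissue, with 10257751 to 36078221 counts each, and genes of few CPM, such as Spi1 and Cd52, rest on the fewest counts. With 1 library left out, the fitted median over the 34 genes ran from 0.0247 to 0.0629 for the sex chromosome effect. It ran from -0.0823 to -0.0389 for the gonad effect and from -0.1798 to -0.0934 for the interaction. In XYF against XXF the range was 0.0655 to 0.1588, and in XYM against XYF -0.1722 to -0.0958. In XXM against XYF it was -0.1513 to -0.0824. The median changed sign in XYM against XXF (-0.0054 to 0.0434).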
